A study of Bos grunniens and Bos grunniens x Bos taurus with 2 samples.

Results

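The cattle-yak hybrid germ cells described here were 220 of the 8930 deposited cells of 1 cattle-yak testis library, 2.46% of them (95% exact binomial interval 2.15 to 2.81%, counting error only). A cell was taken when its raw UMI counts (unique molecular identifiers, each standing for a captured transcript) of SYCP3, MAEL, TDRD9, DMC1, RAD51AP2 and TEX12 summed to at least 5, and those of PIWIL4, SPOCD1 and MORC1, genes of undifferentiated spermatogonia, stayed below 5. No limit was set on mitochondrial share or depth. The same rule took 490 of 11991 yak cells (4.09%, 3.74 to 4.46%), which serve as reference only, so both libraries together held 20921 cells.

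Testis tissue of a yak (Bos grunniens) and of a cattle-yak (Bos grunniens x Bos taurus), both past sexual maturity, was profiled as polyA RNA with droplet-based 10x Genomics sequencing. The tissue had been frozen, was thawed, and was dissociated with collagenase, hyaluronidase and trypsin, with no sorting step given. Each species was represented by 1 library, so no difference between them could be tested: ratios below carry 95% counting intervals, which leave out the variation between animals. The libraries held 43774841 UMIs in the cattle-yak and 60816600 in the yak.

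In a normal testis, spermatogonia enter meiosis and pass through a long prophase, in which programmed DNA breaks are repaired against the homologous chromosome while the synaptonemal complex joins the homologues. At the pachytene stage a large set of testis genes is switched on and the X chromosome is silenced, and after both divisions the haploid spermatids build the acrosome, the tail and the compacted nucleus. Male cattle-yaks are sterile, and how far meiosis proceeds in them is the question these cells bear on.

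Because the rule counts raw UMIs, it favoured deep cells. The hybrid germ cells held from 1090 to 47162 UMIs with a median of 19417, against a median of 3089 in the other cells of that library, and the yak reference cells had a median of 20209.5. In the cattle-yak 77 further cells reached a sum of 5 but were left out by the 3 exclusion genes. At the edge of the rule, 11 cattle-yak cells sat at a sum of exactly 5 (median 11550 UMIs) and 11 sat just outside at 4 (median 10743 UMIs), with the exclusion genes below 5 in both.

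The selecting genes describe the cells but support nothing further. MAEL and TDRD9, both of the piRNA pathway that silences transposons in germ cells, carried most of the selection: 148 of the 220 cells held at least 5 UMIs of these genes alone, and 75 held at least 5 of the other 4. SYCP3, a protein of the chromosome axis, was counted in 126 cells and reached 5 UMIs in 34. RAD51AP2, a partner of the strand exchange machinery, was counted in 40 cells and TEX12, of the central element of the synaptonemal complex, in 180. In the endothelial cells of the same library, which should lack these genes, MAEL was counted in 1.59% of 1261 cells (median 7894 UMIs), TEX12 in 0.952%, TDRD9 in 0.872%, RAD51AP2 in 0.397%, DMC1 in 0.317% and SYCP3 in 0.159%. TEX12 was counted in 6.20% of the 968 lymphocytes.

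Germline genes outside the rule fitted the label. The 6 general germline genes found in the annotation (BOLL, DND1, NANOS3, RNF17, TDRD1 and TEX15) summed to 829 CPM (counts per 1000000 counts of the summed cells) in the hybrid germ cells, 87.2 in the other cattle-yak cells and 16.1 in its endothelial cells. DDX4 and DAZL were not used here, since the annotation lists neither symbol. The cells are therefore called germ cells, while the name spermatocyte would cover only some of them, as the spermatogonial genes below show.

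Several measurements accompanied these cells and were not tested as sources of the differences. The mitochondrial share had a median of 20.1% in the hybrid germ cells, 20.4% in the other cattle-yak cells and 4.97% in the yak reference cells. The libraries shared 24 cell barcodes, none of them held by a hybrid germ cell. Scrublet called 251 of 8930 cattle-yak cells as doublets (2.81%), 11 of them hybrid germ cells. It called 0 of 11991 yak cells, so its calls mark no doublets there, and the reason was not tested. Cattle alleles were counted against a yak reference, and a lower capture of their reads cannot be told apart from a lower level.

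The hybrid cells were placed by their spermatogonial genes (13 in the annotation, among them UCHL1, ZBTB16 and DMRT1) and their pachytene genes. From the pachytene list RPL10L was left out, because it stood at 4080 CPM in the cattle-yak cells that were not germ cells, against 860 in the germ cells. A cell with at least 30 UMIs of the remaining 20 pachytene genes per 10000 was placed in a late range, a cell below that with at least 10 UMIs of the spermatogonial list per 10000 in a spermatogonial range, and the rest in an early range. These cuts were set with the data in view, and the ranges are stretches of a score, not cell types. In the cattle-yak 8 cells lay between 20 and 40 on the pachytene axis and 12 near the border of the spermatogonial axis.

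**Figure D1:**
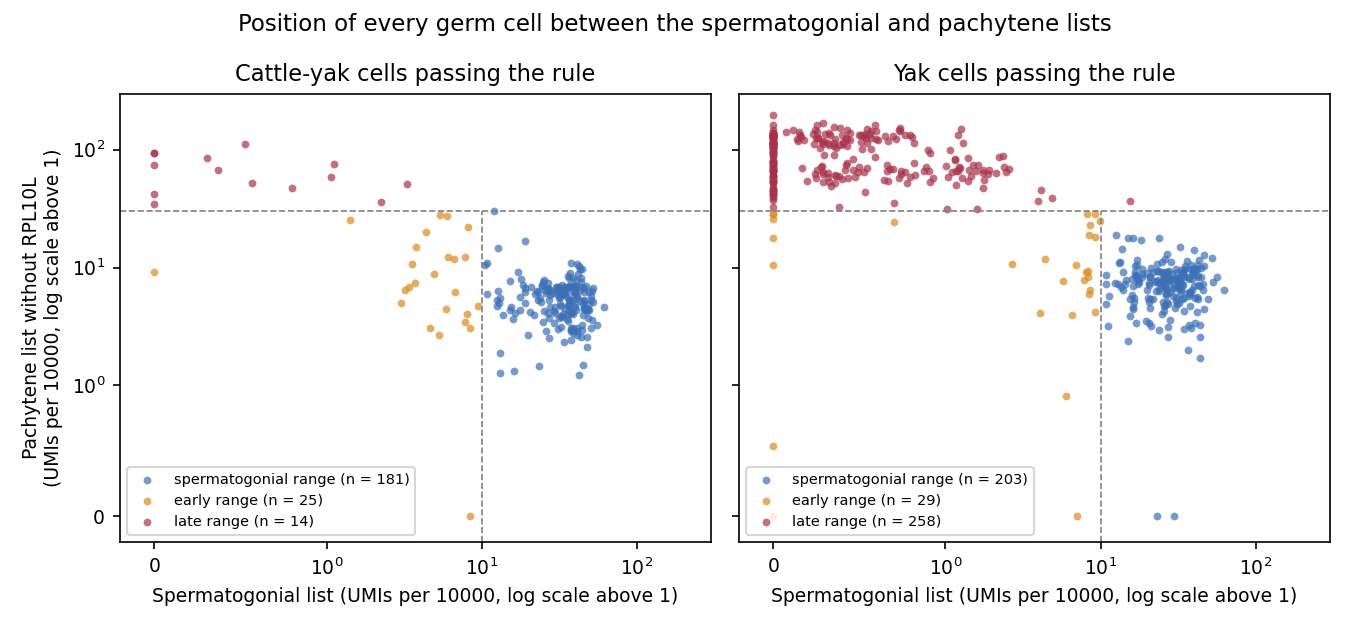
Each point is 1 cell passing the rule, with UMIs of the spermatogonial list per 10000 on the x axis and UMIs of the pachytene list without RPL10L per 10000 on the y axis, both on a log scale above 1; dashed lines mark the cuts at 10 and 30. Of the cattle-yak cells 181 lay in the spermatogonial range, 25 in the early range and 14 in the late range, against 203, 29 and 258 in the yak.

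The size of the contrast in range shares depended on which cells were admitted. Over all the hybrid germ cells the spermatogonial range held 181 of 220 cells (82.3%, 76.6 to 87.1%), the early range 25 (11.4%, 7.49 to 16.3%) and the late range 14 (6.36%, 3.52 to 10.4%). In the yak the corresponding shares were 41.4%, 5.92% and 52.7%. The late share of the hybrid was 4.55% with the cut at 50 and 9.09% with the cut at 20, and in the yak 48.0% and 54.3%. At least 5 UMIs of another cell type's list were held by 119 of the 181 spermatogonial, 5 of the 25 early and 4 of the 14 late hybrid cells, and by 67, 7 and 216 yak cells. Outside the study's own depth and mitochondrial limits lay 153, 6 and 10 of the hybrid cells and 122, 3 and 199 of the yak cells. Without these cells of mixed content the spermatogonial shares were 67.4% (56.8 to 76.8%) of 92 hybrid and 68% (61.1 to 74.4%) of 200 yak cells, and the late shares 10.9% (5.34 to 19.1%) and 21% (15.6 to 27.3%). That filter itself moved with stage. AIF1, a macrophage marker, gave 99.1% of the macrophage-list counts of the yak germ cells and was counted in 154 of the 163 late yak cells with late spermatid genes, at 987 CPM, against 2.95 CPM in the other 95, and DLK1 gave 98.6% of the Leydig-list counts of the hybrid germ cells. With both genes out of the lists the filter took 152 instead of 216 late yak cells, the spermatogonial shares were 72.5% (63.1 to 80.6%) of 109 hybrid and 52.0% (45.9 to 58.1%) of 269 yak cells, and the late shares 9.17% (4.49 to 16.2%) and 39.4% (33.5 to 45.5%). Within the study's limits on depth and mitochondrial share, the spermatogonial shares were 54.9% of 51 and 48.8% of 166 cells, and the late shares 7.84% (2.18 to 18.9%) and 35.5% (28.3 to 43.3%). These shares were recomputed after the data were seen.

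In the spermatogonial range, 4 of the 10 spermatogonial genes with at least 100 summed counts (FGFR3, ZBTB16, NANOS3 and RET) lay past 2-fold higher in the hybrid than in the yak and 0 lower, where 6.58% of 6431 genes lay higher. That list set the border of the range, so the count is a description. ZBTB16, a transcription factor of undifferentiated spermatogonia, was at 371 CPM in the hybrid and 114 in the yak (log2 ratio 1.70, 95% counting interval 1.53 to 1.86). NANOS3, an RNA-binding protein of early germ cells, was at 84.2 and 15.2 CPM (2.47, 2.03 to 2.93). GFRA1, the receptor for GDNF on stem spermatogonia, was at 16.9 and 3.65 CPM (2.21, 1.31 to 3.23), with too few UMIs to enter that count. The differentiation receptor KIT went the other way, at 20.0 and 29.8 CPM, and DMRT1, which governs the choice between mitosis and meiosis, was at 368 and 416 CPM.

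Several meiotic genes outside the rule were lower in this range of the hybrid. The cells of the range held a median of 21528 UMIs in the hybrid and 14494 in the yak, with median mitochondrial shares of 21.8% and 13.9%. Because the rule counts raw UMIs, a shallower cell needed a higher level of its genes to pass. The part of depth and mitochondrial share in these ratios, and in the list counts that follow, was not tested. ZCWPW1, a reader of the histone marks at recombination hotspots, was at 332 CPM in the hybrid and 738 in the yak (log2 ratio −1.15, −1.25 to −1.05). SYCP3, at 100 and 377 CPM, is one of the selecting genes, so its values only describe the cells. MEIOB, which binds single-stranded DNA during strand exchange, was at 25.7 and 81.6 CPM (−1.67, −2.01 to −1.33), and the meiotic cohesin REC8 at 25.5 and 77.3 CPM (−1.60, −1.95 to −1.26). TEX11, which promotes crossovers, was at 293 and 681 CPM (−1.22, −1.32 to −1.11).

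Counted over lists, the meiotic genes were unequal. Of the 6431 genes with at least 100 summed counts in this range, 9.16% lay past 2-fold lower, with a median log2 ratio of −0.15. Against that background, 5 of 7 synapsis genes with enough counts were past 2-fold lower, 4 of 7 meiotic entry genes, 3 of 6 crossover genes and 3 of 9 genes of the axis and of DNA breaks. For strand invasion it was 1 of 10, near the background. Past 2-fold higher stood 1 of these genes, MLH3. Of the 13 DNA replication genes 6 were past 2-fold lower, and TOP2A, the topoisomerase of dividing cells, was at 676 CPM in the hybrid and 1265 in the yak (−0.90, −0.97 to −0.83). As sums, the synapsis list was at 604 CPM in the hybrid and 1203 in the yak (−0.99, −1.07 to −0.92), the meiotic entry list at 1178 and 2091 (−0.83, −0.88 to −0.77) and the strand invasion list at 1573 and 1872 (−0.25, −0.30 to −0.20). These 3 sums kept their direction with mitochondrial and ribosomal-like transcripts out of the denominator and with each cell weighted equally. Over all genes the split past 2-fold, 423 higher and 589 lower, became 544 and 426 with those transcripts out.

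Markers of other testis cells appeared in the same range. WT1, a transcription factor of Sertoli cells, was counted in 119 of the 181 hybrid cells and in 28 of 203 yak cells. All of these cells also held UCHL1, a gene of the list that set the range, which 175 of the 181 hybrid and 183 of the 203 yak cells held. The level of WT1 was 128 CPM in the hybrid and 23.1 in the yak. The hybrid value lay above the 66.9 CPM of that library's remaining cells. The imprinted gene DLK1, used as a Leydig cell marker, stood at 241 CPM, whereas the defining Leydig genes CYP11A1 and STAR were at 1.82 and 1.04 CPM. Of the 11 Sertoli genes FSHR, DHH, INHBB and CITED1 had at most 3 UMIs each in this range, and the Sertoli list summed to 246 CPM against 426 in the cells that were not germ cells. Their part in the results was not tested. Values without all cells holding 5 UMIs of another cell type's list are given in the closing section over all germ cells, not for this range alone.

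The 25 early-range cells carried leptotene and zygotene genes, as the 29 yak cells did. Of the rule genes SYCP3 stood at 940 CPM in the hybrid and 896 in the yak, RAD51AP2 at 336 and 370, TEX12 at 353 and 373, TDRD9 at 96.5 and 123, DMC1 at 71.3 and 127 and MAEL at 46.2 and 89.6. For DMC1 (log2 ratio −0.83, −1.76 to 0.05) and MAEL (−0.96, −2.13 to 0.13) the counts were low. As selecting genes, all of these describe the cells only. Outside the rule, SMC1B, the meiotic cohesin subunit, was at 1309 and 986 CPM and ZCWPW1 at 1418 and 1120. SYCP1, the transverse filament of the synaptonemal complex, was at 1007 and 1027 CPM, and MEIOB at 290 and 418. In sum the axis, break and invasion genes gave 5749 CPM in the hybrid and 4966 in the yak (log2 ratio 0.21, 0.10 to 0.32), a difference that turned to −0.09 with each cell weighted equally.

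Within the cattle-yak, the early range stood apart from the spermatogonial range by these same genes. The synapsis list rose from 604 to 1956 CPM (log2 ratio 1.70, 1.55 to 1.84), and the axis and break list from 1200 to 2879 (1.26, 1.14 to 1.38). Between these ranges the spermatogonial list, which set the border, fell from 3566 to 571 CPM. The early cells were shallower, with a median of 8332 UMIs against 21528 in the spermatogonial range. By the raw-count rule they needed a higher level of the selecting genes to pass, and its part in the rises was not tested. They also held more endothelial transcripts (269 against 51.7 CPM), 3 of them with 5 UMIs or more. The yak early range was mixed, since 2 of its 29 cells held at least 5 UMIs of late spermatid genes, up to 140 in 1 cell.

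A set of 5 early-range hybrid cells had a profile of their own, seen in 4 of the 10 genes with the highest ratio of hybrid to yak germ cells. ENSBGRG00000014054, ENSBGRG00000014600, ENSBGRG00000021519 and ENSBGRG00000021643, which the annotation lists without a symbol, had 197, 195, 113 and 100 UMIs in the hybrid germ cells and 0 in those of the yak. Of these UMIs 193, 194, 112 and 95 lay in 5 cells, chosen after the values were seen as those with at least 10 UMIs of the 4 genes. These 5 cells held 7058 to 15983 UMIs each and 4 to 11 UMIs of SYCP3, and their pachytene score lay between 11.9 and 28.1. No cattle-yak cell outside the germ cells held more than 1 UMI of any of the 4. In the same cells ENSBGRG00000012699 made up 43596 CPM, and it was also counted in the yak germ cells, with 43943 UMIs.

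The late range of the hybrid consisted of 14 cells, with 4355 to 43916 UMIs each and a median of 18295.5. Their pachytene score ran from 34.4 to 112 UMIs per 10000 with a median of 62.6, against a median of 89.9 in the yak late range and 128 in its cells without late spermatid genes. CLGN, a chaperone of the endoplasmic reticulum needed for sperm adhesion proteins, was counted in 14 of 14 cells with 7 to 134 UMIs. PIWIL1, the pachytene piRNA protein, was counted in 12 cells with up to 40 UMIs. DKKL1, an acrosomal protein whose transcript appears in spermatocytes, was counted in 14 cells with 4 to 129 UMIs.

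Single genes of the earlier stages went different ways in these cells. UCHL1 was counted in 2 of the 14 cells with 1 UMI each, and SYCP3 in 4 with at most 3. RAD51AP2 was at 0, which allows up to 10.5 CPM at 3 counts of the 284711 UMIs, against 336 CPM in the early range. From the early to the late range ZCWPW1 fell from 1418 to 24.6 CPM and TEX11 from 835 to 56.2. The axis, break and invasion lists together went from 5749 to 3814 CPM (log2 ratio −0.59, −0.71 to −0.48), and TEX12, of the rule, was at 353 and 284 CPM. Against this SYCP2, an axis protein, rose from 474 to 998 CPM, TERB2, which tethers telomeres to the nuclear envelope, was at 197 and 284 CPM, and the synapsis list as a whole moved from 1956 to 2592 CPM (0.41, 0.24 to 0.58). The TERB2 interval included no change (log2 ratio 0.53, −0.01 to 1.08). Lists of other cell types were unequal in these cells. The myoid list stood at 551 CPM, against 322 over all hybrid germ cells, and the stromal list at 112 against 137, with 4 of the 14 cells at 5 myoid UMIs or more. The Sertoli list was at 45.7 CPM, the endothelial list at 24.6, the lymphocyte list at 17.6, the macrophage list at 3.51 and the Leydig list at 0. In the 95 late yak cells without late spermatid genes the myoid list was at 351 CPM and the stromal list at 29.0. Their part in the results was not tested.

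**Figure D2:**
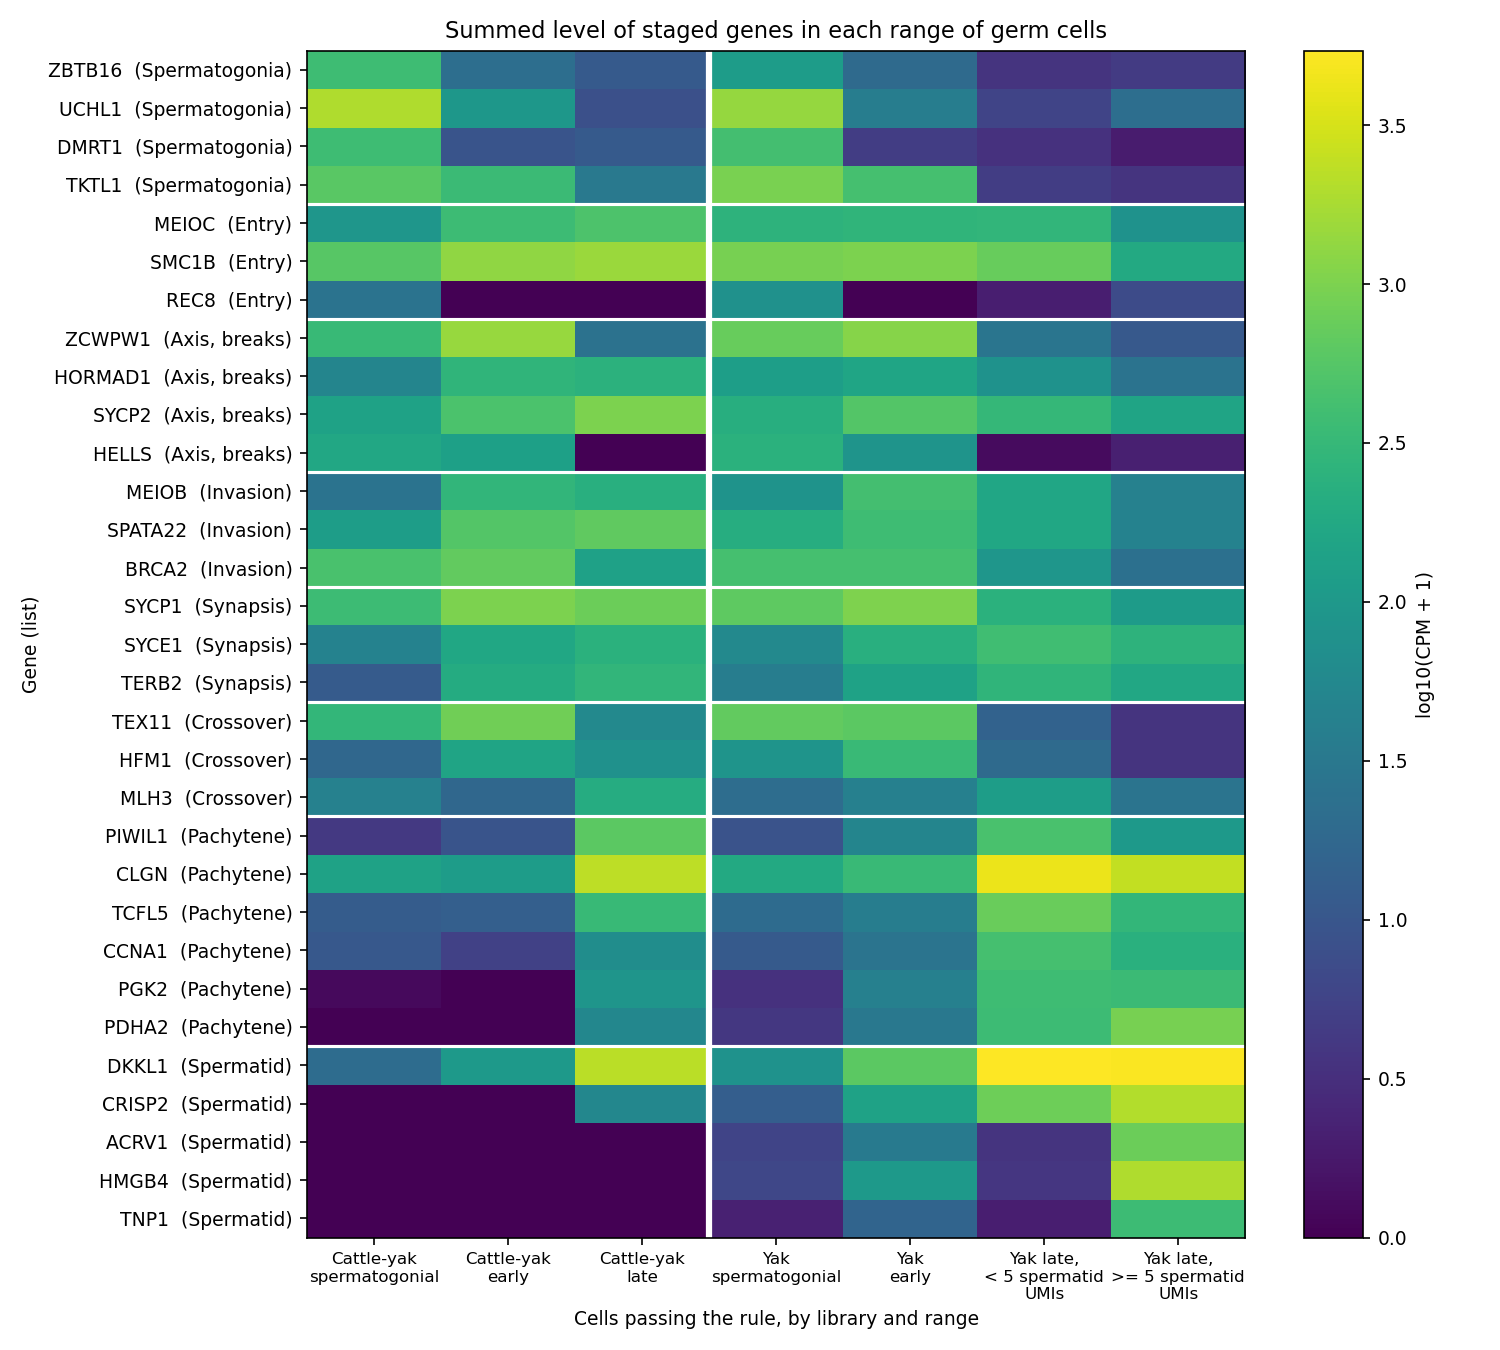
Rows are genes ordered by stage, columns are the ranges of each library, and the colour is log10(CPM + 1) of the counts summed over the cells of a range; late yak cells are split at 5 UMIs of late spermatid genes. The cattle-yak late range shows CLGN, PIWIL1 and DKKL1 at high levels, PGK2 and PDHA2 at 87.8 and 52.7 CPM, and ACRV1, HMGB4 and TNP1 at 0.

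The late fraction was also counted at equal depth. With every cell reduced to 2000 UMIs, 21 of 219 hybrid cells (9.59%, 6.03 to 14.3%) held at least 5 UMIs of the pachytene list without RPL10L, and 1 cell was too shallow to enter. In the yak 264 of 482 did (54.8%). In the hybrid's endothelial cells it was 0 of 1240, which allows up to 0.242%, and in its lymphocytes 0 of 701. Without thinning the share in the hybrid was 86.8%, since deep cells reach 5 UMIs at a low level, and in the endothelial cells 1.27%. With RPL10L in the list the thinned share was 24.7% in the hybrid germ cells but 84.9% in its endothelial cells, and was therefore not read as a stage.

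The hybrid late cells were compared with the 95 yak late-range cells that held fewer than 5 UMIs of late spermatid genes. Of 9 synapsis genes with at least 100 summed counts 4 were past 2-fold higher in the hybrid and 0 lower. Of 8 strand invasion genes 2 were past 2-fold higher, SPATA22 and BRCA1, and 1 lower, TEX15, at 59.7 and 213 CPM (log2 ratio −1.84, −2.62 to −1.15). Over the 4609 genes counted, 14% were higher and 24.5% lower. C14orf39, which encodes the central element protein SIX6OS1, was at 344 CPM in the hybrid and 42.1 in the yak (log2 ratio 3.03, 2.65 to 3.41). SPATA22, the partner of MEIOB, was at 664 and 166 CPM (2.00, 1.76 to 2.24), and SYCP1 at 773 and 240 (1.69, 1.47 to 1.90).

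Lower in the hybrid were several later genes. PDHA2, a retrogene of pyruvate dehydrogenase, was at 52.7 and 368 CPM (−2.80, −3.65 to −2.08), and PGK2, the spermatogenic phosphoglycerate kinase, at 87.8 and 375 (−2.09, −2.73 to −1.53). CCNA1, the cyclin needed to leave meiotic prophase, was at 66.7 and 431 CPM (−2.69, −3.43 to −2.04), and the kinase AURKA at 84.3 and 426 (−2.34, −2.98 to −1.76). TDRD6, a component of the chromatoid body, was at 49.2 and 316 CPM (−2.68, −3.56 to −1.93). Of the 18 pachytene genes with at least 100 summed counts 9 were past 2-fold lower and 0 higher. Over all 4609 genes 24.5% lay lower. The pachytene list set the range, and the yak cells scored higher on it, so the count is a description. The 95 yak cells held 3730547 UMIs and the hybrid cells 284711, so the minimum was passed mostly through the yak.

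The hybrid late cells were also set beside the 28 of these 95 yak cells whose pachytene score was no higher than that of the top hybrid cell. The cap used the pachytene list, so values of that list are partly fixed by it and are a description. Against these cells 0.896% of 1786 genes were past 2-fold higher in the hybrid and 4.03% lower. The synapsis list was then at 2592 CPM in the hybrid and 2530 in the yak (log2 ratio 0.03, −0.10 to 0.16, which turned to −0.05 with each cell weighted equally), and the axis, break and invasion lists at 3814 and 3816 (−0.00, −0.11 to 0.11, which turned to 0.07 in the same way). Past 2-fold lay 0 of 7 synapsis, 0 of 5 axis and break and 0 of 6 strand invasion genes. C14orf39 and SPATA22 were at log2 ratios of 0.93 (0.51 to 1.34) and 0.66 (0.38 to 0.94), short of that threshold. Of the replication genes 1 of 2 was past 2-fold higher, TOP2A, at 818 and 398 CPM (1.04, 0.77 to 1.31). CRISP2, a secreted protein of the acrosome and tail, was past 2-fold lower at −2.07 (−2.95 to −1.29), and the stress gene JUN at −1.04 (−1.52 to −0.57). Of the metaphase genes 0 of 5 were past 2-fold (median log2 ratio −0.15), and of the pachytene genes without RPL10L 0 of 11 (0.10). PGK2 was at 87.8 CPM in the hybrid and 110 in these yak cells. PDHA2, with too few UMIs to be counted, was at −1.22 (−2.14 to −0.40). CDC20, which activates the anaphase-promoting complex, was at −0.80 (−1.27 to −0.35), short of the threshold. The yak reference set was defined with the data in view, and the intervals hold for counting within these 14 and 28 cells.

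**Figure D3:**
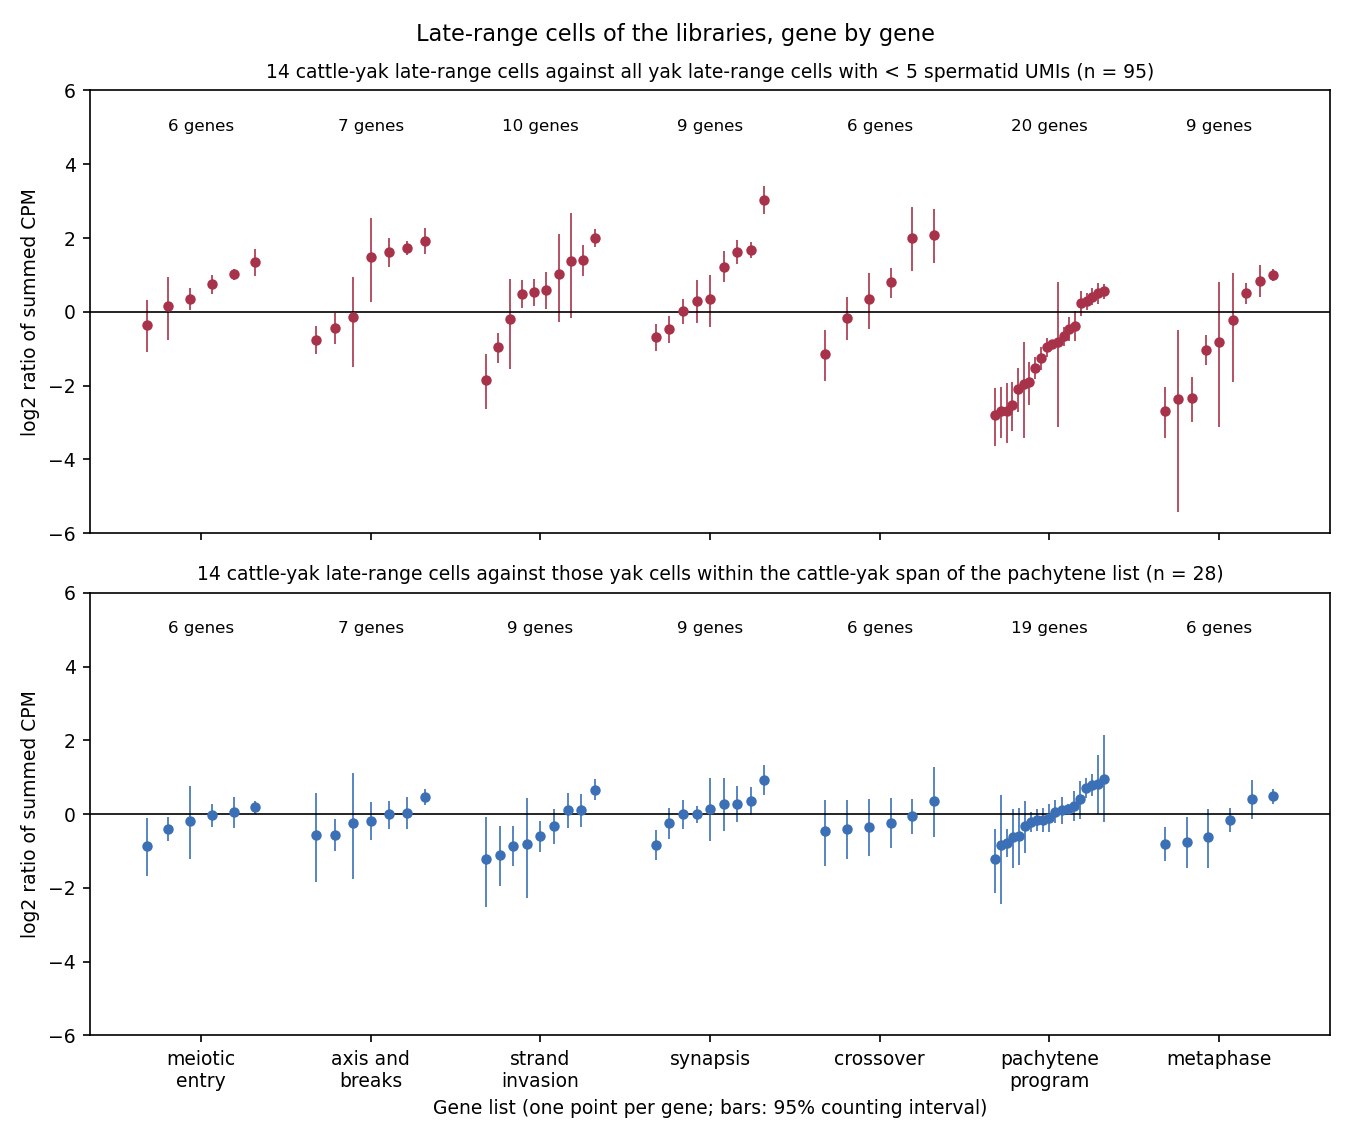
Each point is a gene with at least 20 summed UMIs, placed by list on the x axis and by the log2 ratio of summed CPM (cattle-yak late range over yak late range) on the y axis; bars are 95% counting intervals. Against all 95 yak cells without late spermatid genes (top) the pachytene genes reach down to −2.80, and against the 28 yak cells within the hybrid span (bottom) most genes lie between −1 and 1.

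X-linked transcripts were low in most late hybrid cells. The 58 X-linked genes found in the annotation made up 57.6 UMIs per 10000 in the median cell of the hybrid spermatogonial range, 87.1 in the early range and 6.86 in the late range. Single late cells ran from 1.23 to 98.7 per 10000, and 10 of 14 (71.4%, 41.9 to 91.6%) lay below 20, a cut set after the values were seen. In the hybrid early range 0 of 25 cells and in its spermatogonial range 1 of 181 lay below 20, and of 1261 endothelial cells 1 did. In the yak 206 of 258 late cells (79.8%, 74.4 to 84.6%) were below 20. The 3 lowest hybrid cells, at 1.23, 1.59 and 1.84 per 10000, held 4, 7 and 7 X-linked UMIs among 32639 to 43916.

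The 4 late cells above 20 were at 32.4, 40.9, 63.9 and 98.7 per 10000. With scores of 36.0, 94.3, 51.2 and 34.4 on the pachytene axis, 1 of them stood among the highest on that axis, at a depth of 5620 UMIs. These 4 cells held 274 of the 374 X-linked UMIs of the late range (73.3%), and the other 10 cells stood at 432 CPM. In sum the X-linked list was at 1314 CPM in the hybrid late range and 8372 in its early range (log2 ratio −2.67, −2.84 to −2.51). In the yak the late range was at 1129 and the early range at 8908 CPM (−2.98, −3.04 to −2.91). Against the 28 capped yak cells the hybrid late range was at 1314 and 1407 CPM (−0.10, −0.28 to 0.08), which turned to 0.41 with each cell weighted equally. The late hybrid sum, in both comparisons, rests mostly on the 4 cells. Against all 95 late yak cells without late spermatid genes, 4 X-linked genes had at least 100 summed counts. Of these EIF1AX, PRDX4 and VBP1 were past 2-fold higher in the hybrid and 0 lower (median log2 ratio 1.25), where 14% of 4609 genes lay higher. Against the 28 capped yak cells 3 X-linked genes had enough counts, and 0 lay past 2-fold in either direction (median log2 ratio −0.51). There 0.896% of 1786 genes lay higher and 4.03% lower, so that count says little about the list.

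The X-linked genes with the most UMIs in the late hybrid cells were EIF1AX, PRDX4, RPS4X and VBP1. EIF1AX, a translation initiation factor, went from 3152 CPM in the early range to 348 in the late range, and PRDX4, a peroxiredoxin, from 755 to 133. RPS4X, a ribosomal protein, was at 269 and 123 CPM, and VBP1, a prefoldin subunit, at 436 and 112. A count over single genes between these ranges is not given, because most passed a minimum only through the early range. Over all 220 hybrid germ cells the X-linked list was at 5701 CPM, close to the 6197 of the other cattle-yak cells (−0.12, −0.14 to −0.10, which turned to 0.05 with each cell weighted equally), while over the yak germ cells it was at 2888 against 7815 (−1.44, −1.45 to −1.42). These values moved with the cells and genes admitted. The hybrid ratio reversed to 0.14 within the study's limits and to 0.26 without RPS4X, the gene with the most counts. The yak ratio was −0.32 within the limits, −0.46 without mixed cells, −0.81 with AIF1 and DLK1 out of that filter, −0.74 with each cell weighted equally and −0.95 without RPS4X.

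**Figure D4:**
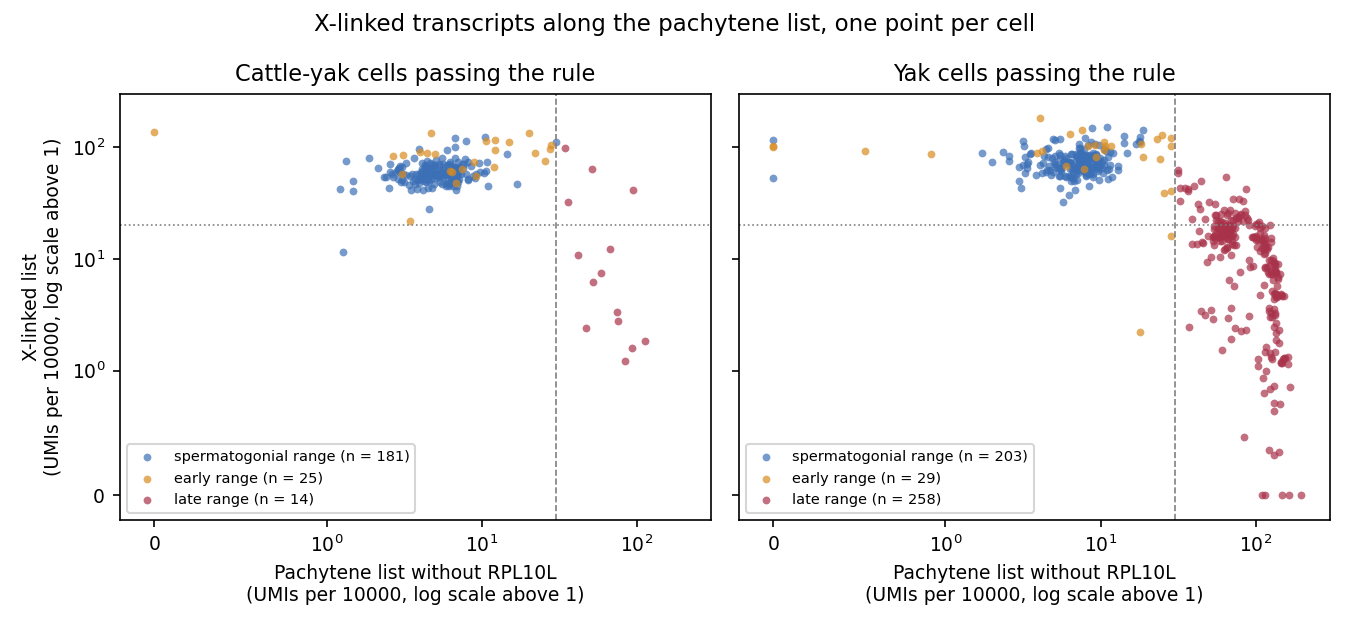
Each point is 1 cell passing the rule, with the pachytene score on the x axis and UMIs of the 58 X-linked genes per 10000 on the y axis, both on a log scale above 1; the dashed line marks 30 on the pachytene axis and the dotted line 20 on the X-linked axis. Late-range cells drop in both libraries, with 10 of 14 cattle-yak cells and 206 of 258 yak cells below 20.

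Late spermatid genes were close to absent from the hybrid germ cells. Of the 30 spermatid genes in the annotation, 13 were at 0 in all 220 hybrid germ cells. HMGB4, a chromatin protein of spermatids, had 0 UMIs in the hybrid and 10279 in the yak germ cells (at least 1197-fold lower, taking 3 counts over the group for the hybrid). ACRV1, an acrosomal protein, had 0 and 4154 (at least 484-fold lower), and TNP1, the transition protein that replaces histones, 0 and 1907 (at least 222-fold lower). CAPZA3, a capping protein of the sperm head, had 0 and 2617, and ODF1, of the tail's outer dense fibres, 0 and 1303.

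The spermatid list still summed to 371 CPM in the hybrid germ cells, against 10924 in the yak (log2 ratio −4.88, −4.95 to −4.81). Most of the hybrid sum came from genes that cells before the spermatid stage already carried, DKKL1 with 170 CPM, ODF2 with 102 and HOOK1 with 78.0. CRISP2 and SPACA1, at 3.43 and 7.32 CPM, were the others of that kind, and all 5 were set aside after their values were seen. The other 25 genes summed to 10.3 CPM in the hybrid germ cells and 5.96 in the other cells of the library, against 4511 in the yak germ cells. Without cells of mixed content, a filter that took 216 of the 258 late yak cells, the log2 ratio of the whole list was −1.42 (−1.52 to −1.31), with AIF1 and DLK1 out of that filter it was −4.09 (−4.19 to −4.00), and within the study's limits −3.79. Over the whole cattle-yak library no cell of 8930 held 5 UMIs of them, which allows a share of up to 0.0336%, and the highest cell held 4. In the yak 392 of 11991 cells did (3.27%, 2.96 to 3.60%), with up to 2711 UMIs in a cell.

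**Figure D5:**
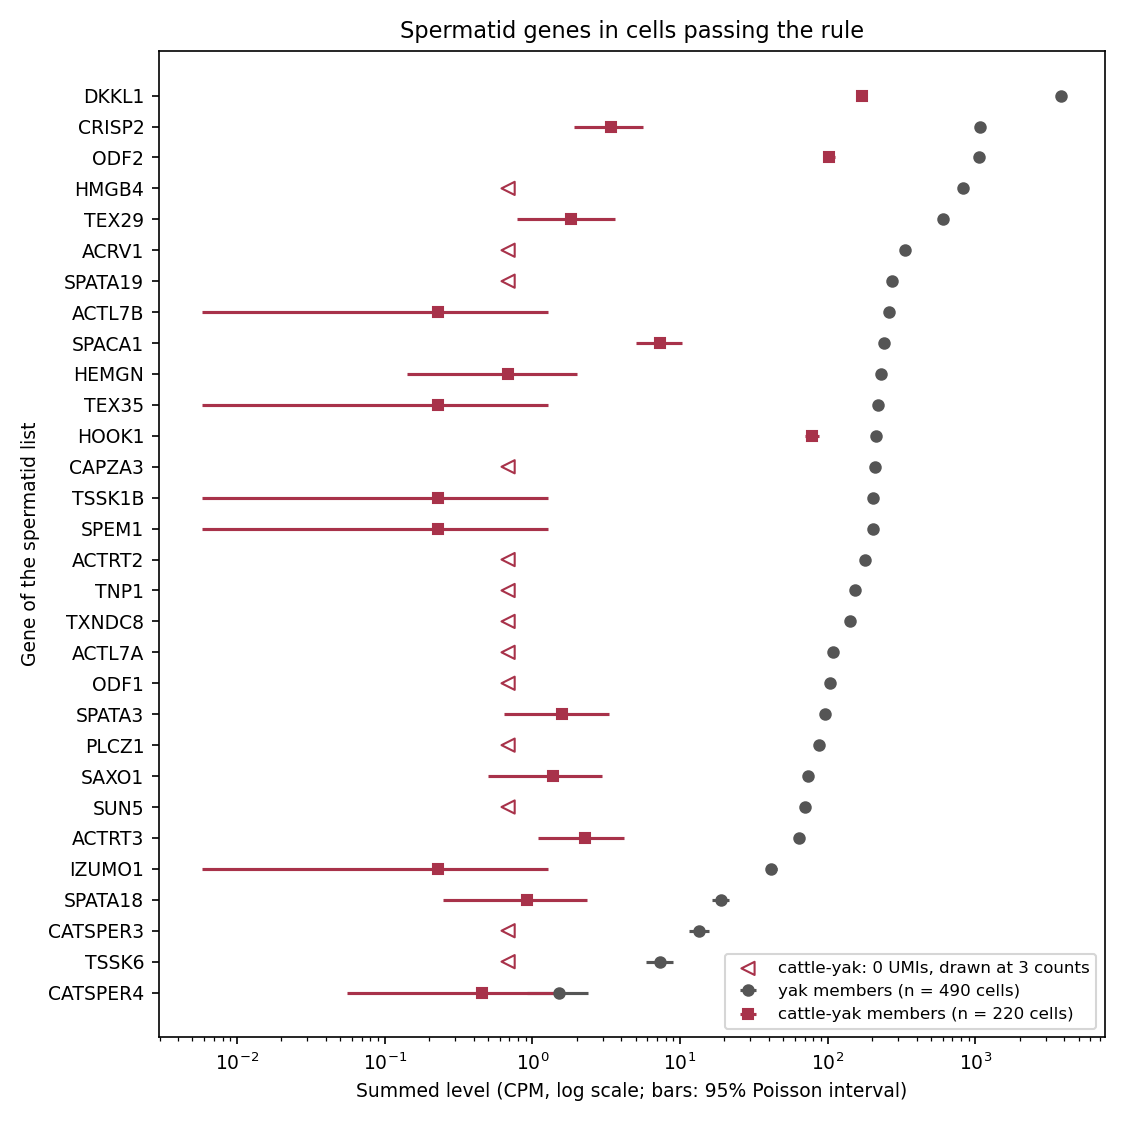
The 30 genes of the spermatid list are placed by their summed level in CPM on a log axis, with yak germ cells (490 cells) as circles and cattle-yak germ cells (220 cells) as squares; bars are 95% Poisson intervals and open triangles mark cattle-yak genes with 0 UMIs, drawn at 3 counts. Above 100 CPM in the cattle-yak stand only DKKL1 and ODF2.

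Late-scoring cells also lay outside the rule. Among the 8710 cattle-yak cells outside it, 7 reached 30 on the pachytene axis, at a median of 1158 UMIs, and 3 of these held at least 10 UMIs of the list. In the yak 487 cells outside the rule did, more than the 258 inside it, 175 of them with at least 10 UMIs of the list.

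Summed over all germ cells, the lists differed between the libraries to unequal degrees. These sums do not tell fewer cells of a stage from less RNA per cell. The spermatogonial list was at 3176 CPM in the hybrid and 836 in the yak (log2 ratio 1.93, 1.89 to 1.96), the axis, break and invasion lists at 3003 and 2581 (0.22, 0.19 to 0.25) and the synapsis list at 807 and 1180 (−0.55, −0.60 to −0.49). The pachytene list was at 1868 and 8069 CPM (−2.11, −2.14 to −2.08), and without RPL10L at 1008 and 7627 (−2.92, −2.96 to −2.88). The lists for meiotic metaphase, at 717 and 1283 CPM (−0.84, −0.90 to −0.78), and for the piRNA pathway, at 1157 and 2035 (−0.81, −0.86 to −0.77), also lay lower in the hybrid. Without the cells of mixed content the spermatogonial ratio was 0.042 and the pachytene ratio −0.82, with AIF1 and DLK1 out of that filter they were 0.76 and −1.26, and within the study's limits 0.22 and −1.18. The axis, break and invasion ratio reversed to −0.077 (−0.13 to −0.029) without the mixed cells but was 0.13 (0.087 to 0.18) with those genes out of the filter, and the synapsis ratio was −0.023 (−0.14 to 0.092) within the limits and −1.20 (−1.27 to −1.12) without SYCP1, its gene with the most counts.

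Over the 9555 genes with at least 100 summed counts, 1844 (19.3%) lay past 2-fold higher in the hybrid germ cells and 3066 (32.1%) past 2-fold lower, on the scale of log2(CPM + 1), with a median log2 ratio of −0.10. With mitochondrial and ribosomal-like transcripts out of the denominator the median was 0.20 and the split 2646 to 2646, and with each cell weighted equally 988 to 2723. Without cells of mixed content it was 58 to 410, from fewer cells and counts, and 347 to 1655 with AIF1 and DLK1 out of that filter. Of the spermatogonial genes 10 of 10 were past 2-fold higher, and of the pachytene genes 19 of 21 past 2-fold lower. Both lists were used to set the ranges, and these counts are a description. Some pachytene genes passed the minimum only through the yak cells, such as PGK2 (26 UMIs in the hybrid and 3235 in the yak) and PDHA2 (15 and 6199). A count over the spermatid genes is not given, because most passed the minimum only through the yak cells. Of the synapsis genes 5 of 9 were lower, among them SYCE1, of the central element, and TERB2. Of the 20 axis, break and invasion genes 5 were higher, BRCA1 and BRCA2 among them, which load the recombinases on broken DNA, and 2 were lower. Of 7 meiotic entry genes 0 lay past 2-fold in either direction.

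On the scale of log2(CPM + 1), which ranked the genes, the highest ratio to the yak germ cells was that of PCLO, a scaffold protein known from synapses. It was at 196 CPM in the hybrid and 3.04 in the yak (log2 ratio 6.01, 5.54 to 6.52) and was counted in 143 hybrid cells. DIPK1C, a kinase-like secretory protein, was at 139 and 2.64 CPM (5.72, 5.21 to 6.27), and PLB1, a phospholipase, at 39.1 and 0.799 (5.61, 4.70 to 6.70). In endothelial cells the log2(CPM + 1) ratios of these genes between the libraries were 0.87, 1.26 and 0.48, and in all cells outside the rule 2.36, 1.36 and 1.36. ENSBGRG00000007655, at 145 and 3.92 CPM, differed by 3.96 in the endothelial cells as well, so its contrast was not particular to germ cells. The others of the 10 highest were ENSBGRG00000011157, a U1 feature and the 4 genes of the 5 early cells. The U1 feature differed by 1.95 in endothelial cells and 3.58 in all cells outside the rule, and ENSBGRG00000011157 by 0.83 and 2.79. The 4 genes differed by at most 0.58 and 0.36 there. The U1 feature and those 4 genes had 0 UMIs in the yak germ cells, and their lower bounds, from at least 95.4-fold (ENSBGRG00000021643) to at least 188-fold (ENSBGRG00000014054) higher, lay above the ratio of PCLO.

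At the other end stood HMGB4, TEX33 and TMEM190, with 0, 0 and 2 UMIs in the hybrid germ cells and 10279, 6001 and 7304 in the yak, and 7 genes without a symbol. The lowest of these on the log2(CPM + 1) scale, ENSBGRG00000026521, had 3 UMIs in the hybrid and 25191 in the yak (log2 ratio −11.52, −13.80 to −9.97), and ENSBGRG00000026920 had 1 and 10547 (−11.85, −17.15 to −9.37). In endothelial cells, too, ENSBGRG00000026521 was lower in the cattle-yak library, by a log2(CPM + 1) ratio of −5.04, as HMGB4 was by −2.95.

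Within the cattle-yak library, the genes that most set the germ cells apart from all other cells were partly meiotic. Among those counted in at least 20% of the germ cells, GML, a membrane-anchored protein of the LY6 family, came first with 250 CPM against 4.49 and was counted in 128 cells. ENSBGRG00000013300, which has no symbol, was the second with 92.8 and 1.07 CPM, and SYCP3, of the rule, the third with 141 and 2.72. MEIOC, which keeps germ cells in prophase, was at 131 and 4.24 CPM in 148 cells, BRDT, a bromodomain protein of the testis, at 110 and 3.81 in 154 cells, and MEIOB at 53.3 and 1.27 in 68 cells. The rest of the 10 were genes without a symbol. These values describe the chosen cells and are no test, since the rule picked the cells by genes of the same program.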

How the data were processed

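The authors deposited raw UMI count matrices made with Cell Ranger against the yak genome BosGru3.0. The version is 5.0.0 in the file headers, 2.1.1 in the submitters' processing notes and another in the study's methods. All 26961 features were used as deposited. CPM values are summed counts divided by all counts of the summed cells. Intervals are 95% exact (Poisson, Clopper-Pearson, conditional binomial) and cover counting error only. With 1 library per group no test was made. Cells were thinned without replacement (numpy 2.4.6). Reference endothelial and lymphocyte cells were non-members with at least 5 UMIs of that list and fewer of the other. Scrublet was run in scanpy 1.11.5. The fold rule was tested on simulated data. Members, gene lists and ranges were chosen with earlier results of these data known. Named genes were the list genes, the 10 highest and 10 lowest ratios between libraries at 100 summed counts, and the 10 highest against other cattle-yak cells. Alternatives covered the rule, filters, doublets, denominators, cell weighting and thinning.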

Additional observations from a re-analysis of the deposited data

Results flagged for a closer look

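In 4 gene lists the germ cells differed from the other cells of their library in opposite directions in the cattle-yak and the yak; the differences between the libraries were not tested. The checkpoint list (BAX and ATM among others) was higher in the hybrid germ cells (log2 ratio 0.28) and lower in the yak ones (−1.07). The pachytene list was lower in the hybrid (−1.18) and higher in the yak (0.56), but most of its counts outside the germ cells belonged to RPL10L, and without that gene it was higher in both (2.71 and 4.33). The Leydig list was higher in the hybrid (2.55) and lower in the yak (−1.08), with DLK1 giving 98.6% of its hybrid counts. The macrophage list was lower in the hybrid (−4.47) and higher in the yak (1.77), with AIF1 giving 99.1% of the yak counts.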

How the results depend on the processing

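Of the recomputed values 42 stayed within the counting interval of the reported ratio or share, or within 1.5 times of the reported count, 73 lay outside that, many of them by little, and 4 reversed; the causes were not tested. No paired analysis was possible because each group had 1 library. Ratios here are log2 of hybrid over yak germ cells for the axis, break and invasion, synapsis, pachytene, spermatid and spermatogonial lists, in this order (0.22, −0.55, −2.11, −4.88 and 1.93 as reported), then X-linked germ cells over other cells in the hybrid (−0.12) and the yak (−1.44). Within the study's depth and mitochondrial limits 51 hybrid germ cells remained, 4 of them late, with 0.29, −0.023, −1.18, −3.79, 0.22, 0.14 and −0.32, a thinned pachytene share of 18.0%, and 121 genes higher and 692 lower. Without cells of mixed content (5 UMIs of another cell type's list) 92 remained, with −0.077, −0.35, −0.82, −1.42, 0.042, −0.15 and −0.46, a thinned spermatid share of 7.69%, and 58 genes higher and 410 lower. With AIF1 and DLK1, which carried over 90% of their lists' counts, out of that filter (chosen after seeing the data) 109 remained, with 0.13, −0.23, −1.26, −4.09, 0.76, −0.14 and −0.81, a thinned pachytene share of 16.7%, and 347 genes higher and 1655 lower. The hybrid X-linked ratio reversed within the limits, with cells weighted equally and without its top gene, and the axis list without mixed cells. With mitochondrial and rRNA-like transcripts left out the values were 0.53, −0.23, −1.79, −4.56, 2.24, −0.33 and −1.70. With each cell weighted equally they were 0.10, −0.42, −1.71, −4.61, 1.17, 0.051 and −0.74, with 988 genes higher. Without the gene with the most counts they were 0.35, −1.20, −1.85, −5.15, 1.68, 0.26 and −0.95. At 8 UMIs of the 6 genes the axis list gave 0.25, the spermatogonial list 1.99 and the X-linked ratios −0.092 and −1.47, and at 3 UMIs the last 3 gave 1.86, −0.16 and −1.40. Without the 10% highest Scrublet scores the pachytene, spermatid and spermatogonial lists and the yak X-linked ratio gave −2.17, −4.79, 2.09 and −1.51. Without RPL10L the pachytene ratio was −2.92 and its thinned share 9.59%, and without the 5 genes counted before the spermatid stage the spermatid values were −8.78 and 0%. The thinned pachytene share (24.7% at 2000 UMIs) was 7.73% at 1000, 63.0% at 4000 and 55.3% at 3 UMIs of the list, and the spermatid share (4.11%) was 1.82% at 1000. At 500 summed counts 800 genes were higher and 1846 lower.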

Other observations

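The 5 early-range hybrid cells with the unnamed genes also shared ENSBGRG00000016599, with 231 UMIs in them and 16 in the other hybrid germ cells and 38 UMIs over all yak germ cells. Apoptosis and stress genes were lower in the hybrid germ cells than in the other cattle-yak cells (2021 against 9246 CPM, log2 ratio −2.19, −2.22 to −2.16). In the spermatogonial range 0 of the 8 of these genes with at least 100 summed counts lay past 2-fold in either direction between the libraries. Over all 6431 genes 6.58% lay higher and 9.16% lower, so a count of 0 among 8 says little about this list. Most of the difference between the list sums (2051 CPM in the hybrid and 1461 in the yak) was in the pro-apoptotic BAX, at 1014 and 560 CPM (0.86, 0.78 to 0.94).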
